A study of Mus musculus with 6 samples.

Results

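The genes described are 10 members of the imprinted growth-control network, H19, Igf2, Dlk1, Meg3, Cdkn1c, Ndn, Peg3, Grb10, Plagl1 and Mest, taken by symbol from a table of 23235 genes. All 10 symbols were found, and 3 of them, Ndn, Grb10 and Cdkn1c, reached the mean of 1 FPKM over the libraries that was required for testing. FPKM is the number of fragments per kilobase of transcript, scaled to the mapped fragments of the library. RNA came from bone marrow cells that the labels call FACS-sorted LT-HSCs (long-term haematopoietic stem cells, the rare cells that can rebuild blood formation for life), taken from mice aged 2 months. One group carried an Hmces knockout (3 libraries) and the other was wild type (WT, 3 libraries). The labels give 3 libraries per genotype, whereas the series' design text speaks of duplicates, and all 6 libraries were used. HMCES protects abasic sites in single-stranded DNA. Both genotypes are listed as C57BL/6, and every library title, WT included, carries a 13 bp tag that the labels do not explain. The labels name neither the type of Hmces allele nor the sort gates. They do not say whether each library came from its own mouse, so the p-values reflect the spread among 6 libraries, which may be technical.

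Imprinted genes are transcribed mainly from 1 parental allele, under the control of DNA methylation laid down in the germ line. Many of them set growth in the embryo and placenta, with paternally expressed genes such as Igf2, Dlk1, Mest and Peg3 often favouring growth and maternally expressed genes such as H19, Cdkn1c and Grb10 often restraining it. In mouse marrow several of these genes have been linked to the quiescence of long-term stem cells. The FPKM values do not tell the 2 parental alleles apart, so they measure the level of each transcript and not its imprinting. In a bulk sample fewer cells of a type and less RNA per cell cannot be told apart.

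Libraries held an estimated 9300000 to 14200000 fragments, and 3 fragments on a transcript of 2000 nt correspond to 0.117 to 0.179 FPKM depending on the library. This is used below as the floor, and it covers counting error only. The targeted gene Hmces (8430410A17Rik in the table) had 8.95, 0.222 and 6.95 FPKM in knockout libraries, against 39.5, 45.4 and 41.0 FPKM in WT libraries, the direction the labels give, with a log2 fold change of -3.23 that was not called in the fit over all genes (SE 0.71, limma adjusted p = 0.289). Knockout replicate 2 stood apart, scoring 67.0 on the first principal component where the other 5 libraries lay at -33.6 to 10.1. Across all genes, 13 of 11532 were called by limma at an adjusted p under 0.05, which is 0.113%.

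The stem cell label was checked against marker transcripts. Procr, which encodes the stem cell receptor EPCR, ranged over 13.6 to 32.5 FPKM in knockout and 21.1 to 32.4 FPKM in WT libraries. Slamf1, which encodes CD150, stood at 1.39, 3.62 and 2.29 FPKM in knockout and 3.10, 2.2 and 5.08 FPKM in WT libraries. Fgd5 and Hoxb5, both used as reporters of mouse LT-HSCs, were lower still, with Fgd5 between 0.559 and 1.23 FPKM in knockout and between 0.414 and 0.911 FPKM in WT libraries, and Hoxb5 between 0.0618 and 0.684 FPKM in knockout and between 0.135 and 0.912 FPKM in WT libraries. Transcripts of surface proteins that are low or absent on mouse LT-HSCs were abundant. Cd34 lay at 453 to 496 FPKM in knockout and 468 to 499 FPKM in WT libraries, Flt3 at 136 to 151 FPKM in knockout and 121 to 151 FPKM in WT libraries, and Cd48 at 263 to 307 FPKM in knockout and 145 to 220 FPKM in WT libraries. The mean levels of Cd34, Flt3 and Cd48 exceeded those of 98.9%, 96.3% and 97.8% of all genes in the table. The marker transcripts therefore go in part against a pure LT-HSC label, and the cells are called sorted cells below. Granulocyte transcripts were present in both genotypes, with 16 listed markers summing to 18865 to 25293 FPKM in knockout and 6638 to 10391 FPKM in WT libraries. Their part in the values below was not tested.

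**Figure D1:**
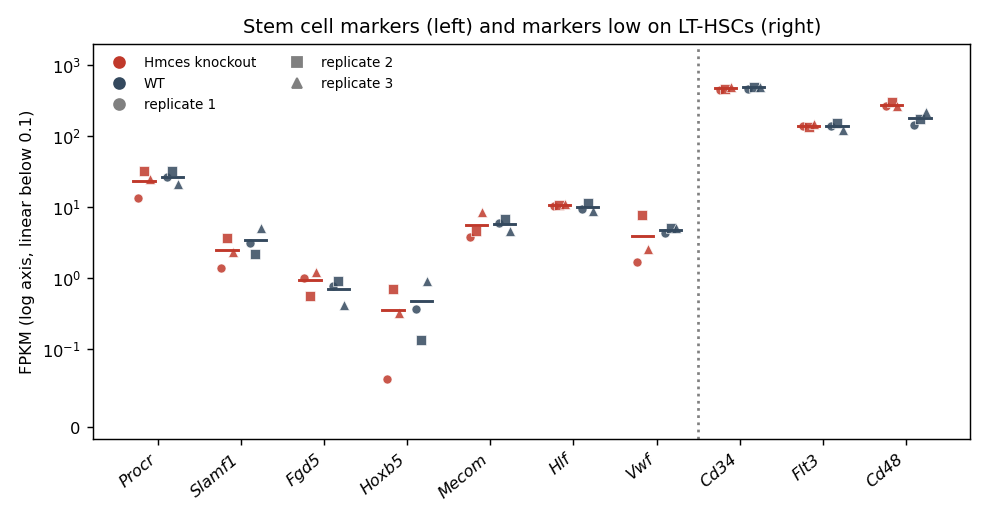
FPKM per library of stem cell markers (left of the dotted line) and of markers that are low on LT-HSCs (right) in Hmces knockout (red, left of each pair) and WT (dark, right) sorted cells, with shapes for replicates and bars for group means (n = 3 each). Fgd5 and Hoxb5 lie near or below 1 FPKM, whereas Cd34, Flt3 and Cd48 lie above 100 FPKM in every library.

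RefSeq promoter windows (250 bases before to 50 after a start site, build GRCm38.p6) were matched for 8 of the 10 members, 15 windows in all. The windows of Ndn and of the upstream start of Grb10, the most abundant members, and that of Plagl1, which was listed at 0 throughout, are shown so that their density of CG pairs (in capitals), the sites of DNA methylation, can be read side by side. They lie at chr7:62348027-62348326 (plus strand), chr11:12037371-12037670 (minus strand) and chr10:13090582-13090881 (plus strand).
Ndn: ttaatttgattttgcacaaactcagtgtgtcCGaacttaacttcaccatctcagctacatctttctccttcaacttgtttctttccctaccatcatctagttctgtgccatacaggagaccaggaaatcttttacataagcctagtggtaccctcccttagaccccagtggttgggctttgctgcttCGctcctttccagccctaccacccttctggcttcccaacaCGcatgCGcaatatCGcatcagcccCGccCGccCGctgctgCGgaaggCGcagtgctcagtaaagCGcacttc
Grb10: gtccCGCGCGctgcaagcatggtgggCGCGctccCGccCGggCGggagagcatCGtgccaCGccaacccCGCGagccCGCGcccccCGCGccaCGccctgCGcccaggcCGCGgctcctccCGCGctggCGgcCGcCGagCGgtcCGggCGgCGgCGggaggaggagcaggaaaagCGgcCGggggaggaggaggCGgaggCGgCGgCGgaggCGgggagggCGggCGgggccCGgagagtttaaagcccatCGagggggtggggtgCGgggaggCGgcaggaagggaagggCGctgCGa
Plagl1: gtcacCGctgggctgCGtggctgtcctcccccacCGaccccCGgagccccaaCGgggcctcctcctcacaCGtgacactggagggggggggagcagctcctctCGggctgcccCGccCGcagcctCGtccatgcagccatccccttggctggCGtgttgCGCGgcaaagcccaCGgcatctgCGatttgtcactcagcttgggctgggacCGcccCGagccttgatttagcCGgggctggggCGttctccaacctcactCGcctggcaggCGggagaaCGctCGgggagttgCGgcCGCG

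The Grb10 window held 45 CG pairs, more than 98.1% of the 32851 RefSeq promoter windows, whose median is 7. The Plagl1 window held 26 and the Ndn window 11, more than 83.1% and 58.6% of the windows. The hexamer TGCCGC, bound by the imprint-maintaining protein ZFP57 when its CG is methylated, was searched on both strands and shares its CG with the counts above. It occurred once each in the Grb10 and Plagl1 windows and not in the Ndn window. Windows of Mest, Igf2 and Meg3 also held it, and 11.6% of all windows did. Since Plagl1 was listed at 0 and Grb10 was not, windows with many CG pairs and this hexamer were found both at a member listed at 0 and at a transcribed one.

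Ndn, Grb10 and Cdkn1c were read above the floor in all 6 libraries, Mest in 4, Dlk1 in 3 and Meg3 in 2, and the other 4 members in none. Ndn averaged 7.26 FPKM over the 6 libraries, Grb10 6.09 FPKM and Cdkn1c 1.25 FPKM, above the mean levels of 67.6%, 65.6% and 51.8% of all genes in the table. Mest averaged 0.334 FPKM, Dlk1 0.125 FPKM and Meg3 0.116 FPKM. Igf2, H19 and Peg3 averaged 0.0301, 0.0123 and 0.00753 FPKM, and Plagl1 was listed at 0 in every library. The order of Ndn over Grb10 held in 4 of 6 libraries, so these neighbours did not differ beyond their spread. Grb10 exceeded Cdkn1c in 6 of 6 libraries with no overlap of their ranges, whereas every later pair of neighbours in this order overlapped. Summed over the 10 members, FPKM came to 12.1, 10.4 and 16.1 in knockout libraries, against 12.2, 20.5 and 20.0 in WT libraries. The groups overlapped because WT replicate 1 lay among the knockout values. Ndn and Grb10 together made up 83.7% to 93.4% of the sum in each library.

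**Figure D2:**
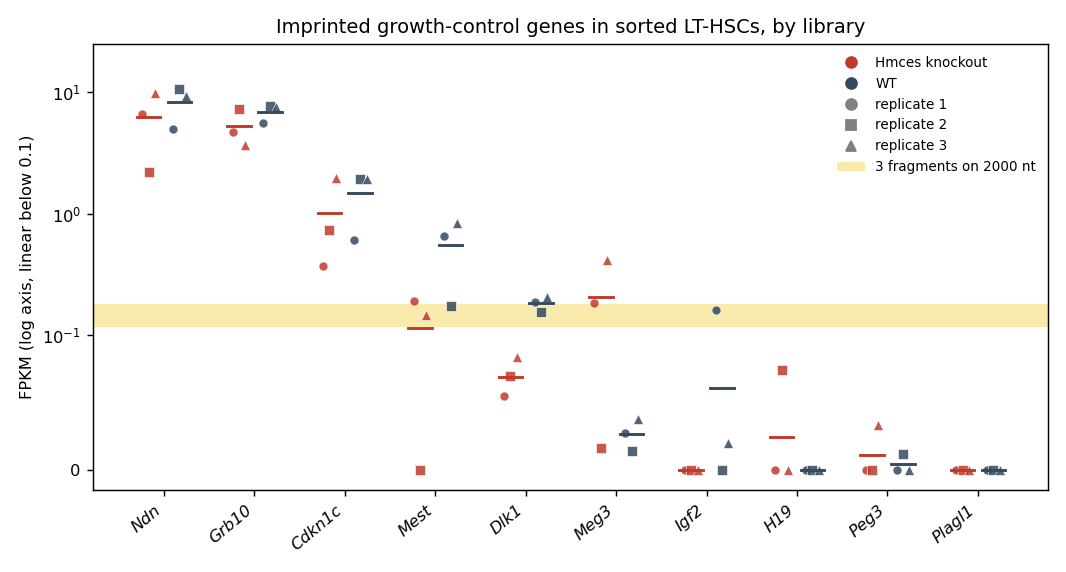
FPKM of the 10 members in each Hmces knockout (red, left of each pair) and WT (dark, right) library, ordered by mean level, with shapes for replicates and bars for group means (n = 3 each). The yellow band marks 3 fragments on a transcript of 2000 nt, and Igf2, H19, Peg3 and Plagl1 do not rise above it in any library.

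None of the 3 tested members differed between Hmces knockout and WT sorted cells beyond the spread between libraries. All 3 had negative log2 fold changes, with group means at 74.8% of WT for Ndn, 75.5% for Grb10 and 68.5% for Cdkn1c. By limma 0 of the 3 were called over all genes tested, and 0 had an unadjusted p under 0.05, against 0.113% and 9.16% of all genes. The median log2 fold change of the 3 was -0.38, beside -0.01 over all tested genes, of which 48.1% were positive.

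Ndn encodes necdin, a paternally expressed MAGE-family protein that restrains cell growth and has been linked to quiescence of mouse stem cells. It was read at 6.58, 2.21 and 9.85 FPKM in knockout libraries, against 4.97, 10.5 and 9.40 FPKM in WT libraries. The lowest value came from knockout replicate 2, knockout replicate 3 was close to the highest WT libraries, and the groups overlapped. The means were 6.21 ± 3.83 FPKM in knockout and 8.30 ± 2.94 FPKM in WT cells (SD, n = 3 each; exact two-sided permutation p = 0.6). The log2 fold change was -0.48 (SE 0.48, 95% interval -1.59 to 0.63, limma adjusted p = 0.785). Without knockout replicate 2, the library that stood apart, it was 0.02 (adjusted p = 0.992), so the sign rested on that library.

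Grb10 encodes an adaptor protein that dampens signalling from the insulin and IGF1 receptors and is maternally expressed in most mouse tissues. It was read at 4.75, 7.29 and 3.67 FPKM in knockout libraries, against 5.56, 7.72 and 7.52 FPKM in WT libraries. Knockout replicates 1 and 3 lay below every WT library, while knockout replicate 2 lay among them. The means were 5.24 ± 1.86 FPKM in knockout and 6.94 ± 1.19 FPKM in WT cells (SD, n = 3 each; exact permutation p = 0.2). The log2 fold change was -0.38 (SE 0.30, 95% interval -1.08 to 0.32, limma adjusted p = 0.725). Grb10 was thus relatively high in the knockout library where Ndn was lowest, and the ratio of Ndn to Grb10 FPKM was 1.39, 0.304 and 2.69 in knockout libraries, against 0.893, 1.36 and 1.25 in WT libraries.

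Cdkn1c encodes p57, a maternally expressed inhibitor of cyclin-dependent kinases that mouse stem cells need to stay quiescent. It was read at 0.369, 0.733 and 1.95 FPKM in knockout libraries, against 0.604, 1.92 and 1.94 FPKM in WT libraries. Each genotype held both low and high libraries, with knockout replicate 3 at the level of WT replicates 2 and 3. The means were 1.02 ± 0.830 FPKM in knockout and 1.49 ± 0.765 FPKM in WT cells (SD, n = 3 each; exact permutation p = 0.7). The log2 fold change was -0.32 (SE 0.45, 95% interval -1.36 to 0.71, limma adjusted p = 0.846). The p-value of 0.1 is the smallest that 3 against 3 libraries can give in the permutation test.

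The other 7 members averaged below 1 FPKM and did not enter the test, so their values are given by library and without a fold. Mest, a paternally expressed gene for a hydrolase-like protein, was listed at 0.192, 0 and 0.147 FPKM in knockout libraries, against 0.659, 0.174 and 0.835 FPKM in WT libraries. WT replicates 1 and 3 were the highest, well above the floor, and WT replicate 2 overlapped the knockout range (exact permutation p = 0.2, n = 3 each). With the filter lowered to a mean of 0.1 FPKM, its limma adjusted p was 0.692. Dlk1, which encodes a transmembrane relative of the Notch ligands, stood at 0.0543, 0.0693 and 0.0835 FPKM in knockout libraries, against 0.187, 0.155 and 0.204 FPKM in WT libraries. The 3 WT values lay above the floors of their libraries, which were 0.172, 0.127 and 0.117 FPKM for WT replicates 1, 2 and 3. The knockout values were all below the floor and below the lowest WT value. With 3 libraries a group this gave an exact permutation p of 0.1, and the limma adjusted p with the lower filter was 0.813. Of 3547 genes with a mean FPKM from 0.1 to below 1, 9.5% likewise showed no overlap between the groups.

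Meg3, the maternally expressed long noncoding RNA of the same cluster as Dlk1, was listed at 0.183, 0.0159 and 0.417 FPKM in knockout libraries, against 0.0275, 0.0135 and 0.0375 FPKM in WT libraries. Knockout replicates 1 and 3 were above the floor and knockout replicate 2 was within the WT range (exact permutation p = 0.3, n = 3 each; limma adjusted p with the lower filter 0.765). Of 21 stromal and endothelial markers, 7 reached a mean of 1 FPKM and Lum, Bglap and Sp7 were listed at 0 throughout. The 7 were Lepr, Pdgfrb, Runx2, Pecam1, Emcn, Vwf and Tek. Of these, Vwf and Tek, with means of 4.37 and 8.68 FPKM, are also on the list of stem cell markers. Cxcl12, Pdgfra, Col1a1, Cdh5 and Kdr averaged below 1 FPKM. The sum of the list is therefore not a measure of stromal cells alone. The list summed to 79.6 to 100.1 FPKM in knockout and 65.3 to 89.3 FPKM in WT libraries, and its low members did not move together. Col1a2, named after its values were seen, was highest in knockout replicates 1 and 3, where Meg3 was above the floor. It stood at 1.59, 0.0180 and 1.06 FPKM in knockout libraries, against 0.416, 0 and 0.0142 FPKM in WT libraries. In WT replicate 1 it was thus above the floor where Meg3 was not. Pdgfra, likewise named after its values were seen, was at 0.0822, 0 and 0.186 FPKM in knockout libraries and at 0 in all 3 WT libraries. Cxcl12, Dcn, Nes, Kitl and Adipoq were instead listed at 0 in all 3 knockout libraries and read in at least 1 WT library. The part of such cells in the Meg3 values was not tested.

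Igf2, the paternally expressed fetal growth factor, was listed at 0 in all 3 knockout libraries and at 0.161, 0 and 0.0201 FPKM in WT libraries. H19, the maternally expressed long noncoding RNA beside Igf2, was listed at 0, 0.0738 and 0 FPKM in knockout libraries and at 0 in all 3 WT libraries. Peg3, a paternally expressed zinc finger gene, was listed at 0, 0 and 0.0334 FPKM in knockout libraries, against 0, 0.0118 and 0 FPKM in WT libraries. Plagl1, a zinc finger transcription factor that regulates other imprinted genes, was listed at 0 in all 6 libraries. For these 4 genes no library passed the floor, so a difference was not detectable at this depth. An exact 0 in this unit can lack reads or be a failed estimate, and 4382 of the 23235 genes were at 0 in every library.

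Several members host microRNAs. Mir675 is processed from H19 and its product has been shown to target Igf1r, Mir335 lies within Mest and Mir483 within Igf2. Their mature sequences (RefSeq, GRCm38.p6) are shown, with the seed (bases 2 to 8) in capitals, as the products that these hosts of low level could give.
mmu-miR-335-5p: uCAAGAGCaauaacgaaaaaugu
mmu-miR-335-3p: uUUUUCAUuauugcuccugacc
mmu-miR-675-3p: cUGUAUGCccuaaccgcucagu
mmu-miR-675-5p: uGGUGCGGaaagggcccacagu
mmu-miR-483-3p: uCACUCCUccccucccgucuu
mmu-miR-483-5p: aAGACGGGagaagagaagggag

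None of these 6 sequences shared a seed with another. Of 36 microRNA genes of these loci and of the Dlk1-Meg3 cluster, 32 were listed at 0 in all 6 libraries, including Mir675, Mir335 and Mir483. The other 4 were read in 1 library each, Mir433 at 19.5 FPKM in knockout replicate 2, Mir376b at 153 FPKM in knockout replicate 3, and Mir409 and Mir412 at 133 and 124 FPKM in WT replicate 2. So short a gene takes a large FPKM from very few fragments, and 0 of the 4 were called (lowest limma adjusted p = 0.703, 0 with an unadjusted p under 0.05). The libraries were made from Smart-seq2 cDNA and were not small RNA libraries. A value of 0 here does not show that a mature microRNA was absent.

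H19, Igf2, Peg3, Dlk1, Meg3 and Mest sat in clusters where no listed gene, the members included, reached a mean of 1 FPKM. Ndn and Cdkn1c had transcribed neighbours, and more neighbours were listed for them. In the Kcnq1 domain on chromosome 7, which holds Cdkn1c, 9 of 11 listed genes reached a mean of 1 FPKM, led by Cd81, a tetraspanin gene, at 337 ± 8.32 FPKM in knockout and 376 ± 19.5 FPKM in WT cells (SD, n = 3 each). Kcnq1ot1, the noncoding RNA that silences neighbours on the paternal allele, was read at 3.54, 6.09 and 5.13 FPKM in knockout libraries, against 2.16, 2.59 and 3.21 FPKM in WT libraries (limma adjusted p = 0.552). These groups did not overlap, as for 15.8% of all tested genes, and the gene was chosen after its values were seen. It lies antisense within Kcnq1, which was listed at 0 throughout, and strand use in the counting is not given. Around Ndn on chromosome 7, 5 of 8 genes reached a mean of 1 FPKM, with the ubiquitin ligase gene Ube3a highest, while Magel2 was at 0 throughout. In the H19-Igf2 cluster 0 of 3 genes reached a mean of 1 FPKM, around Peg3 0 of 3, and around Dlk1 and Meg3 on chromosome 12 0 of 6. Mest was listed with Klf14 only, and 0 of these 2 reached it. Plagl1 and Grb10 were listed without neighbours. The highest single value of the Dlk1-Meg3 cluster was 0.732 FPKM, of Mirg in knockout replicate 2.

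**Figure D3:**
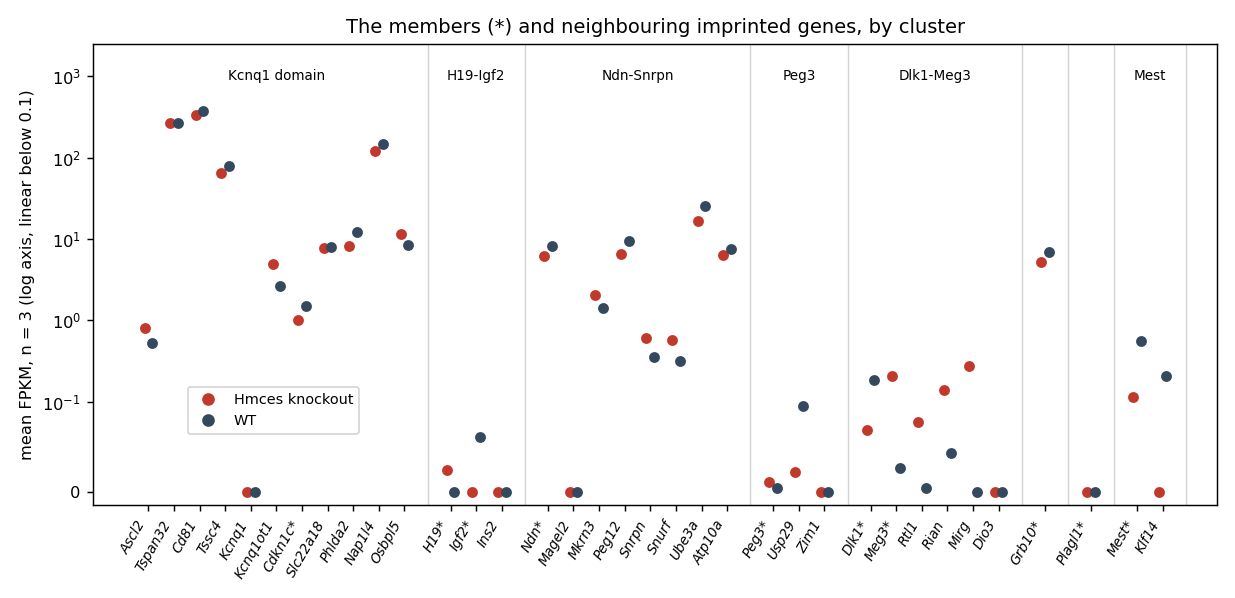
Mean FPKM (n = 3 each) of the members, marked by an asterisk, and of their neighbouring imprinted genes in Hmces knockout (red, left) and WT (dark, right) sorted cells, grouped by cluster. The H19-Igf2, Peg3 and Dlk1-Meg3 clusters lie below 1 FPKM throughout, whereas the Kcnq1 domain reaches 376 FPKM in WT cells.

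Beyond the members, 53 other genes were listed as imprinted. Alleles were not told apart, so whether these genes are imprinted in the sorted cells was not tested, and maternal or paternal is the listed label only. Of these, 27 reached the testing threshold and 7 were at 0 in every library, so 50.9% were tested, beside 49.6% of all genes. By limma 0 of the 27 were called, 5 had an unadjusted p under 0.05 (18.5%, beside 9.16% of all tested genes), and 8 had groups that did not overlap (29.6%, beside 15.8%). The median log2 fold change was 0.11, with 15 positive and 12 negative, but it was -0.06 without knockout replicate 1, 0.01 without knockout replicate 2 and 0.02 without WT replicate 2. Maternally expressed genes had a median of -0.09 over 17 genes (0.00 without WT replicate 3) and paternally expressed genes 0.20 over 10 genes (0.10 to 0.46 with libraries left out). A mean of 10 FPKM was reached by 16, the highest being Cd81, then Tspan32, a tetraspanin gene of blood cells, with 263 ± 32.1 FPKM in knockout and 268 ± 33.9 FPKM in WT cells, and the histone chaperone gene Nap1l4 with 119 ± 21.5 FPKM in knockout and 146 ± 11.9 FPKM in WT cells (SD, n = 3 each). Commd1 followed with 107 ± 28.9 FPKM in knockout and 118 ± 15.2 FPKM in WT cells and Tssc4 with 64.4 ± 26.3 FPKM in knockout and 78.8 ± 13.1 FPKM in WT cells. Pon2, H13, Phlda2, Osbpl5, Sgce and Peg13 made up the rest of the 16 with the 5 genes described next.

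The 5 non-member imprinted genes with the smallest p-values were Slc22a3, Pon3, Gatm, Ube3a and Impact. Slc22a3, an organic cation transporter gene, had 40.2, 54.6 and 39.6 FPKM in knockout libraries, against 19.7, 17.2 and 12.6 FPKM in WT libraries. Every knockout value exceeded every WT value, with a log2 fold change of 1.39 (SE 0.22, limma adjusted p = 0.115). Under 2 alternative fits Slc22a3 was called, at adjusted p = 0.0454 with robust estimation and 0.0241 without small RNA genes, within a range of 0.0241 to 0.317 over 14 alternatives. The lactonase gene Pon3 had 32.8 ± 10.3 FPKM in knockout and 17.6 ± 2.53 FPKM in WT cells (adjusted p = 0.479), and Gatm, of creatine synthesis, had 54.4 ± 2.69 FPKM in knockout and 40.4 ± 5.39 FPKM in WT cells (adjusted p = 0.488). Ube3a had 16.6 ± 4.65 FPKM in knockout and 25.3 ± 3.24 FPKM in WT cells (adjusted p = 0.506), and Impact, a regulator of the eIF2 kinase GCN2, had 15.4 ± 4.94 FPKM in knockout and 8.79 ± 1.80 FPKM in WT cells (adjusted p = 0.512; SD, n = 3 for each gene). In the same knockout libraries the granulocyte markers were higher, and their part in these differences was not tested.

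**Figure D4:**
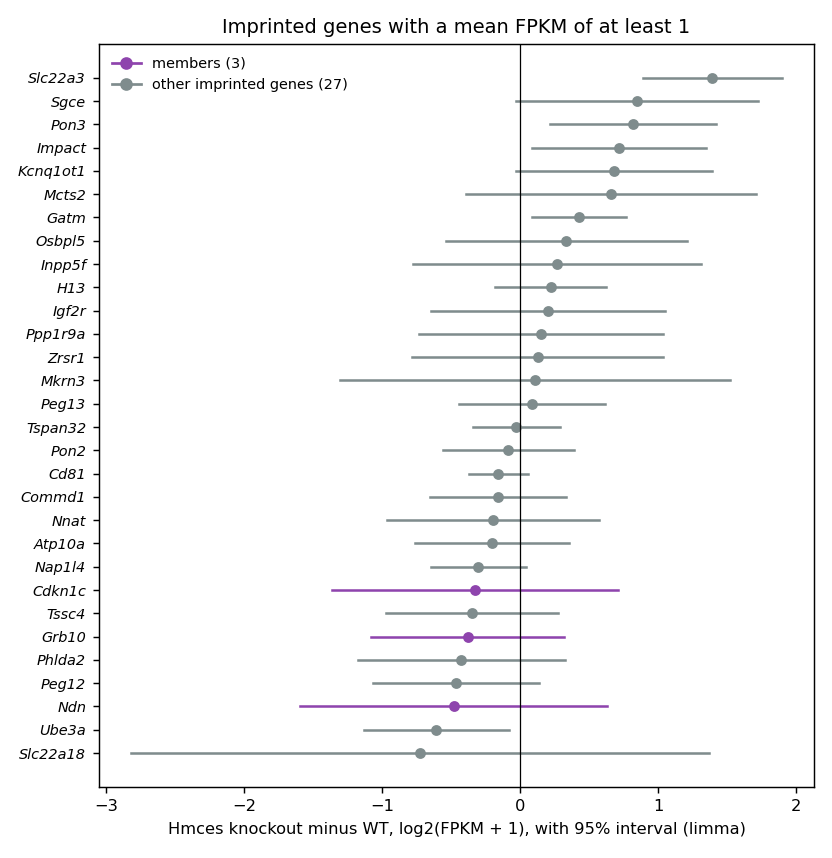
Difference in log2(FPKM + 1) between Hmces knockout and WT cells (knockout minus WT) for the 30 imprinted genes with a mean of at least 1 FPKM, with limma's 95% interval (n = 3 each). The intervals of Ndn, Grb10 and Cdkn1c span 0, and Slc22a3 has the largest positive difference at 1.39.

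Of 42 IGF signalling genes, Igf2 and Grb10 included, 25 were tested and 0 were called by limma (0 with an unadjusted p under 0.05), with 8 positive and 17 negative differences and a median of -0.09. Igf1, the ligand beside Igf2, was at 0.237, 0 and 0.0632 FPKM in knockout and 0.182, 0.325 and 2.99 FPKM in WT libraries. The receptor gene Igf1r was at 2.97 ± 1.24 FPKM in knockout and 2.47 ± 0.426 FPKM in WT cells, and Insr at 1.68 ± 0.631 FPKM in knockout and 1.86 ± 0.409 FPKM in WT cells (SD, n = 3 each). Igfbp4, which encodes an IGF-binding protein, was the most abundant of the named genes of this list, at 242 ± 3.73 FPKM in knockout and 273 ± 13.1 FPKM in WT cells (limma adjusted p = 0.620). Rheb, an activator of mTOR, had 85.9 ± 18.6 FPKM in knockout and 103 ± 3.52 FPKM in WT cells (adjusted p = 0.663) and the kinase gene Pdpk1 8.66 ± 2.90 FPKM in knockout and 5.94 ± 1.75 FPKM in WT cells (adjusted p = 0.703).

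Cdkn1c was the lowest of the tested cyclin-dependent kinase inhibitor genes. Of 8 listed, 6 were tested and 0 were called (0 with an unadjusted p under 0.05), 3 with positive and 3 with negative differences and a median of 0.05 (-0.14 without WT replicate 1). Cdkn1b, which encodes p27, had 31.4 ± 3.98 FPKM in knockout and 24.8 ± 2.71 FPKM in WT cells (limma adjusted p = 0.604). Cdkn3, a phosphatase of cyclin-dependent kinases, had 25.9 ± 4.27 FPKM in knockout and 21.7 ± 5.65 FPKM in WT cells (adjusted p = 0.757), and Cdkn2d, which encodes p19, had 2.59 ± 0.387 FPKM in knockout and 3.53 ± 0.0891 FPKM in WT cells (adjusted p = 0.732; SD, n = 3 for each gene). Of 18 Notch pathway genes, Dlk1 included, 5 were tested and 0 were called (0 with an unadjusted p under 0.05), with a median of 0.17 (0.00 without knockout replicate 2). The receptor gene Notch2 had 19.9 ± 1.45 FPKM in knockout and 16.1 ± 0.976 FPKM in WT cells (adjusted p = 0.644), Notch1 had 5.41 ± 1.62 FPKM in knockout and 6.28 ± 0.496 FPKM in WT cells (adjusted p = 0.836), and the target gene Hes1 had 7.61 ± 2.73 FPKM in knockout and 4.58 ± 1.59 FPKM in WT cells (adjusted p = 0.637).

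Of 20 genes that maintain imprints, 17 reached the testing threshold and 1 was listed at 0 throughout. By limma 0 of the 17 were called, 4 had an unadjusted p under 0.05 (23.5%, beside 9.16% of all tested genes), 8 differences were positive and 9 negative, and the median was -0.01 (0.26 without knockout replicate 1). Uhrf1, which brings DNMT1 to newly replicated DNA, had 67.0 ± 5.92 FPKM in knockout and 89.4 ± 10.8 FPKM in WT cells (adjusted p = 0.488). Mbd3, of the NuRD complex, had 28.9 ± 12.8 FPKM in knockout and 46.3 ± 2.71 FPKM in WT cells (adjusted p = 0.506), and Daxx, a histone H3.3 chaperone gene, had 30.1 ± 8.71 FPKM in knockout and 18.9 ± 3.10 FPKM in WT cells (adjusted p = 0.511; SD, n = 3 for each gene).

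The genes whose log2(FPKM + 1) most resembled that of Ndn over the 6 libraries were Phtf1, Zswim7, Tal1, St6galnac6 and Ube2w, with Pearson r between 0.976 and 0.997. All 5, like Ndn, were lowest in knockout replicate 2. Tal1, a transcription factor of blood stem cells, was at 10.9, 8.35 and 12.0 FPKM in knockout libraries, against 9.68, 11.9 and 11.2 FPKM in WT libraries. Phtf1 was at 5.55, 2.68 and 7.55 FPKM in knockout libraries, against 4.54, 8.07 and 7.80 FPKM in WT libraries. These values describe 6 points picked from 11532 genes, and all share the same libraries. Among the tested members, r was 0.69 between Ndn and Cdkn1c, -0.19 between Ndn and Grb10 and 0.16 between Cdkn1c and Grb10.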

How the data were processed

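The values are FPKM per gene as deposited by the authors, 1 column per library, 6 columns matched to the labels by title. TopHat2 2.1.1 and Cufflinks 2.2.1 with build mm9 appear in the submitters' processing notes; options, annotation and strand use are not stated there. Per the labels' protocols, RNA of 1500 sorted cells was amplified by Smart-seq2, 500 pg of cDNA entered each library, and paired reads of 150 bp were sequenced. FPKM is relative to the library's total, and very short genes take large, noisy values.

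The 11532 genes averaging 1 FPKM or more were put on the log2(FPKM + 1) scale, which understates changes of low genes. The test was limma 3.58.1, R 4.3.3 (mean-variance trend, genotype only, two-sided, Benjamini-Hochberg over all tested genes, called under 0.05). Log2 fold changes are knockout minus WT. Single values were compared by exact permutation. Depth was estimated from steps of low FPKM in 982 genes with 1 GENCODE transcript over 1500 nt, assuming 200 nt fragments; 73.2% to 78.2% of their values came out whole within 0.1 fragment, so depth is approximate.

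Members and lists were chosen with earlier results of these data known; the cluster grouping was made after values were seen. Values are named for all members, Hmces, imprinted genes of high level or among the 5 smallest p, and the 3 smallest p per further list; Igf1, Igf1r, Insr, Kcnq1ot1 and the marker genes were added with their values seen. Alternatives covered the pseudocount, low-value filter, scaling, trend, robust estimation, small RNA genes, replicate block and left-out libraries. RefSeq (GRCm38.p6) gave sequences and neighbourhood only, since its build differs from mm9.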

Additional observations from a re-analysis of the deposited data

How the results depend on the processing

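Over 14 alternative fits 0 of the tested members were called. Cdkn1c and Grb10 stayed negative throughout, at -0.64 to -0.08 and -0.60 to -0.19 with libraries left out in turn. Ndn ranged over -0.86 to 0.02 and turned positive (0.0186) without knockout replicate 2. The count of all genes called was 1 with no filter on low values, 2 with a replicate block, 6 with no trend, 20 with robust estimation, 32 without small RNA genes and 2 to 19 with libraries left out (2 without knockout replicate 3). Same-numbered libraries had correlations of deviations of 0.08, 0.01 and 0.04, not every library correlated best with its own number, and the block gave 0 calls among the members. With a pseudocount of 0.1 the untested members' log2 differences were 0.27 for H19, -0.55 for Igf2, -0.74 for Dlk1, 1.03 for Meg3, 0.0847 for Peg3 and -1.58 for Mest; this shift follows from the smaller pseudocount. Of the other imprinted genes, 1 (Slc22a3, maternally expressed) was called with robust estimation and 1 (the same gene) without small RNA genes. Their median ranged over -0.0625 to 0.15 with libraries left out, that of the maternally expressed over -0.119 to 0.00187 (0.0199 with no filter) and that of the paternally expressed over 0.10 to 0.46. The medians of the other lists ranged over -0.16 to -0.04 for IGF signalling, -0.14 to 0.16 for kinase inhibitors, 0.00233 to 0.334 for Notch (0.0157 with no filter, 0.0603 with a mean of 0.1 FPKM) and -0.10 to 0.26 for imprint maintenance. The causes were not tested. Hmces was called without knockout replicate 2 (log2 fold change -2.27, limma adjusted p = 0.0223). Depth limits Igf2, H19, Peg3 and Plagl1, which no library read above the floor. The floor assumes the same transcript length for every gene, so it is not a fragment count for these genes.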

Other observations

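The imprinted cluster around the receptor gene Igf2r gave unlike values. Igf2r, which clears IGF2 from the cell surface, was at 2.84, 1.21 and 1.15 FPKM in knockout libraries, against 1.28, 1.16 and 1.44 FPKM in WT libraries (limma adjusted p = 0.895). Airn, the paternally expressed antisense RNA of this cluster, was listed at 0, 0.0745 and 0 FPKM in knockout libraries, against 1.69, 0.754 and 0 FPKM in WT libraries, and was below the testing threshold. Slc22a2 was at 0.0920 FPKM in knockout replicate 2 and listed at 0 in the other 5 libraries, beside Slc22a3, whose values did not overlap between the groups. Strand use in the counting is not given, so reads of Airn and Igf2r where they overlap cannot be told apart.

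Asb4, an imprinted gene of the cluster with Sgce and Peg10, was at 0.0679, 3.21 and 0.0348 FPKM in knockout libraries, against 0, 0 and 0.0228 FPKM in WT libraries, so the level came from knockout replicate 2. Its neighbour Sgce, which encodes a sarcoglycan, was at 19.3, 8.61 and 20.2 FPKM in knockout libraries, against 11.8, 5.65 and 7.38 FPKM in WT libraries (limma adjusted p = 0.552). Peg10 was at 0.0324, 0.0138 and 0.348 FPKM in knockout libraries, against 0, 0.0587 and 0 FPKM in WT libraries. These genes were chosen after their values were seen.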
